A study of Homo sapiens with 12 samples.

Results

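RPRM and 7 other genes known as p53-target arrest genes were followed in RNA-seq of HEK293T cells, namely CDKN1A, MDM2, GADD45A, SESN1, SESN2, BTG2 and CCNG1. These 8 genes of the 33093 in the count table were selected on the level of RPRM, which was higher in cells with the S80A substitution of NFKB1 than in WT cells, and the question asked of them is whether the other p53 targets were higher along with it. All 8 passed the filter on low counts, which kept 14383 genes. Because RPRM chose the set, its values in S80A cells are a description with no test, whereas the other 7 genes were tested in every comparison.

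The 12 samples form 4 groups of 3 replicates each. WT cells and NFKB1 S80A cells were left untreated or received 10 ng/ml TNFα for 3 h. HEK293T is a human embryonic kidney line that carries the SV40 large T antigen, a viral protein that binds p53, in all 4 groups. The S80A cells were made from this line by CRISPR/Cas9, which replaced serine 80 of the p50 subunit of NF-κB with alanine, and clones were grown from single cells. How many clones were sequenced is not given in the sources used here, so the edit and any other difference between a clone and the parental cells cannot be told apart. The replicates are described as independently generated, with no further detail of their source, and the p-values measure the spread between these samples.

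p53 is a transcription factor that responds to DNA damage and other stress by binding response elements near its target genes. Some targets halt the cell cycle. CDKN1A encodes p21, an inhibitor of cyclin-dependent kinases, and GADD45A encodes a stress protein that binds PCNA and the CDK1 kinase. RPRM encodes Reprimo, a glycosylated cytoplasmic protein linked to arrest in G2, when the CDK1 and cyclin B1 complex is held inactive. BTG2 is an antiproliferative gene of the BTG and TOB family, and CCNG1 encodes cyclin G1, which recruits a phosphatase to MDM2. MDM2 encodes the ubiquitin ligase that removes p53, so its induction closes a feedback loop. SESN1 and SESN2 encode sestrins, which restrain mTORC1, and SESN2 is also a target of the stress factor ATF4.

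To show sequences of the kind p53 binds beside these genes, GRCh38 was searched for the p53 response element within 3000 bases either side of each canonical transcript start. A match was a run of 20 bases made of 2 adjoining copies of the 10-base p53 half-site consensus, with at most 2 mismatches and the C and G of each core kept. Of 12716 genes searched, 568 (4.47%) held a match, as did 5 of the 8 arrest genes. The matches are shown on the strand of the gene, with the 4-base core of each copy in capitals, because they are a feature of the arrest genes that the counts did not choose.
CDKN1A, 2265 bases upstream of the start, chr6:36676449-36676468, plus strand: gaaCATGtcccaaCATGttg
GADD45A, in intron 3, 1574 bases downstream of the start, chr1:67686775-67686794, plus strand: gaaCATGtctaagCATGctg
MDM2, in intron 1, 746 bases downstream of the start, chr12:68808923-68808942, plus strand: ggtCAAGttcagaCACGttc
BTG2, 1877 bases upstream of the start, chr1:203303642-203303661, plus strand: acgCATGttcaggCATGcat
CCNG1, in intron 1, 331 bases downstream of the start, chr5:163437926-163437945, plus strand: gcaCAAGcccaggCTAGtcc
CCNG1, in intron 2, 2351 bases downstream of the start, chr5:163439946-163439965, plus strand: gacCTAGtcaagaCTTGctt
RPRM, SESN1 and SESN2 had no match in this window, which says only that these letters were not found there.

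RPRM (ENSG00000177519.4) lies on the minus strand of chromosome 2, from 153477338 to 153478762 of GRCh38, as a single exon of 1425 bp. Its promoter is shown because RPRM differed most between the genotypes among the 8 genes. In the RefSeq promoter record on GRCh38.p14, the 250 bases before the RPRM start read as follows, from chr2:153478763-153479012 on the minus strand, with no match to the p53 half-site or to the κB consensus and therefore no capitals.
RPRM promoter: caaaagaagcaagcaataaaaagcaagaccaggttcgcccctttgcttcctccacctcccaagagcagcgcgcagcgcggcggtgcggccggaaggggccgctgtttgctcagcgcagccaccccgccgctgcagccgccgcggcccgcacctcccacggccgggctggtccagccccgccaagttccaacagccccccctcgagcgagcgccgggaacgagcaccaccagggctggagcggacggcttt
It held 26 CG pairs, against a median of 20 over the promoters of the genes tested, 68.6% of which held fewer. Downstream of the start, within the first exon, lay 2 overlapping matches to the κB consensus on opposite strands, and SESN2 held 1 upstream of its start. κB sites are the motifs bound by NF-κB dimers. The matches are in capitals, with RPRM from chr2:153478713-153478742 on the minus strand and SESN2 from chr1:28259385-28259414 on the plus strand.
RPRM, bases 39 to 49 after the start: cgcgtcggagaggctcctGGGAAACTCCCa
SESN2, upstream: tccagggggcGGAGTTTCCCccgcctcccc
A κB match was found in 6.84% of the 15124 promoter records of the genes tested, and a p53 half-site in 5.65%. Of the 8 genes, 7 had a record, GADD45A being the one without, and the p53 half-site was found in a record of SESN1 alone.

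Library totals ran from 15624878 to 20889577 reads. Counts were scaled to the mean library by the TMM method and are given as normalised counts. NFKBIA and TNFAIP3, 2 inhibitors of NF-κB signalling that TNFα is known to induce, rose in both genotypes by 3.14 to 3.86 on the log2 scale, so the treatment was visible in every treated group. Of 6 HEK293T markers, 5 had over 10 reads in every library. The exception was NEFM, a neurofilament gene, at a mean of 1838 normalised counts in untreated WT cells and 4.49 in untreated S80A cells, so that the S80A libraries stood apart from WT beyond the genes described here. The defining immune markers PTPRC and CD3E had 0 reads in all libraries.

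RPRM had few reads in WT cells and several times as many in S80A cells. In untreated WT cells the raw counts of replicates 1, 2 and 3 were 41, 31 and 31, and after TNFα they were 27, 34 and 53. In untreated S80A cells the counts were 263, 192 and 266, and after TNFα they were 429, 247 and 284. Every S80A library was thus above every WT library, with no overlap in either treatment state. The same held for 11.7% of all genes tested in untreated cells and 13.0% after TNFα.

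The mean normalised count of RPRM was 34.0 ± 7.57 (SD, n = 3) in untreated WT cells and 235 ± 7.47 in untreated S80A cells. This is a log2 difference of 2.79 ± 0.20 (SE), or 6.93-fold. After TNFα the means were 37.8 ± 12.5 in WT and 328 ± 52.3 in S80A cells, a log2 difference of 3.11 ± 0.20, or 8.64-fold. These genotype differences chose the set and carry no test. TNFα changed RPRM in WT cells by 0.16 ± 0.25 on the log2 scale, which did not pass the test (adjusted p = 0.997, edgeR quasi-likelihood test with Benjamini-Hochberg adjustment over all genes tested). In S80A cells the 3 treated libraries were all above the 3 untreated ones, by 0.48 ± 0.16 on the log2 scale, given as a description. The share of all genes separated in this way with TNFα was not counted.

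**Figure D1:**
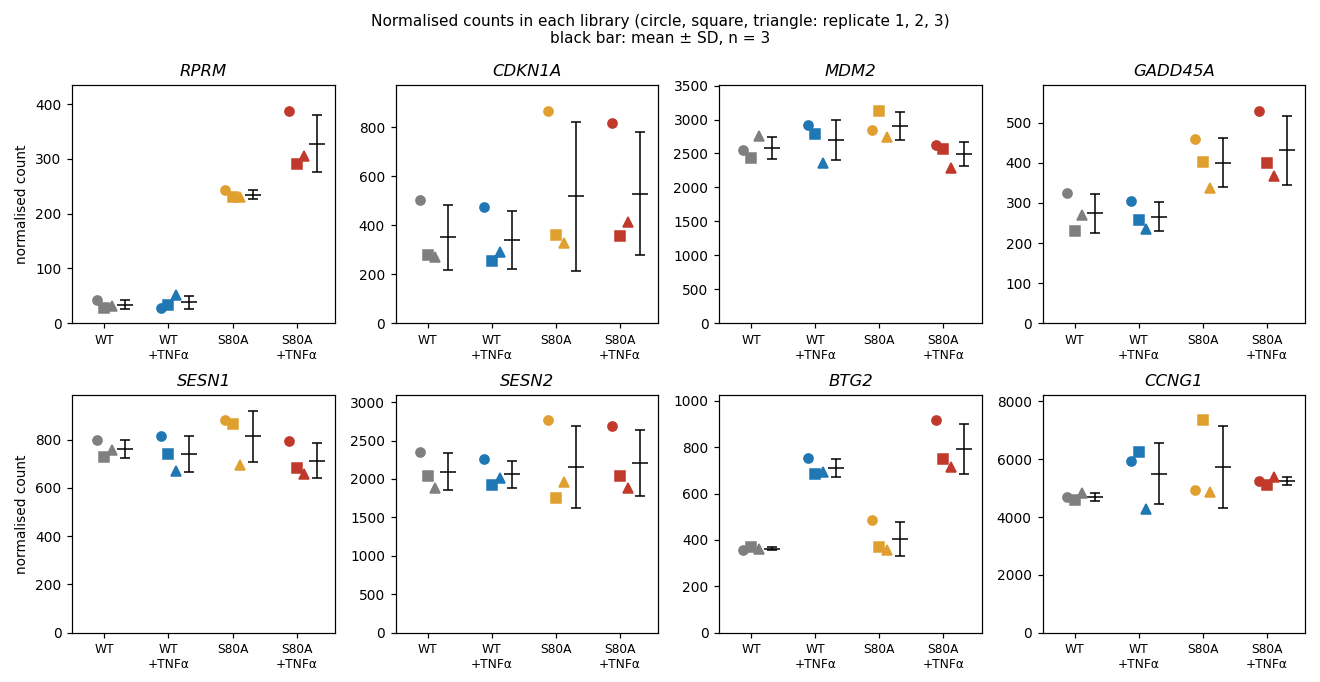
Normalised counts (vertical axis) of the 8 arrest genes in each of the 12 libraries by group (horizontal axis), with circles, squares and triangles for replicates 1, 2 and 3 and black bars for the mean ± SD (n = 3). RPRM separates the genotypes, BTG2 separates treated from untreated cells, and CDKN1A is highest in replicate 1 of all 4 groups.

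To compare levels between genes, reads were divided by the length of the canonical transcript, as reads per kb per 1000000 library reads. RPRM was lowest of the 8 genes in untreated WT cells, at 1.29 ± 0.286, well below BTG2, next above it at 7.14 ± 0.133. In untreated S80A cells RPRM reached 8.89 ± 0.282 and lay between BTG2 at 8.0 ± 1.44 and CDKN1A at 13.2 ± 7.73, from neither of which it differed beyond the spread. After TNFα, S80A cells held RPRM at 12.4 ± 1.98, above SESN1 at 6.77 ± 0.693 and within the spread of CDKN1A at 13.5 ± 6.39. CCNG1 was highest of the 8 in all groups, between 104 and 126.

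The inhibitors and arrest genes were compared between the genotypes next. In untreated cells 0 of the 7 other genes passed the test, against 6.26% of all genes tested in either direction. At an unadjusted p under 0.05 edgeR gave 1 of the 7, and DESeq2 called 1, GADD45A in both. All 7 had a higher mean in S80A cells, where 52.6% of all genes tested were higher by sign. Their median log2 difference was 0.17 beside 0.01 over all genes tested, and the differences ran from 0.04 to 0.57. The signs of CDKN1A and SESN2 changed without replicate 1 of the untreated S80A cells, at -0.03 and -0.17. After TNFα 1 of the 7 passed, against 7.36% of all genes tested. By sign 4 of 7 were higher, beside 49.3% of all genes tested. The median was then 0.10, beside 0.00 over all genes. Beside the higher RPRM, the other arrest genes were thus called in 0 and 1 of 7 cases in this fit. A fit with a block for the replicate number, given below, called more of them, and more of all genes too.

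GADD45A was the gene that passed. Its normalised counts in untreated WT cells were 325, 229 and 269, and those in untreated S80A cells were 460, 402 and 338. After TNFα the WT libraries gave 305, 257 and 236 and the S80A libraries gave 530, 400 and 367. Every S80A library was above every WT library in both states, a pattern shared by 11.7% of all genes tested in untreated cells and 13.0% after TNFα. The log2 difference was 0.54 ± 0.17 in untreated cells, which missed the threshold (adjusted p = 0.0711, edgeR), and 0.70 ± 0.17 after TNFα, or 1.63-fold (adjusted p = 0.0213, edgeR). The difference between these 2 values was itself 0.16 ± 0.24 (adjusted p = 0.93, edgeR interaction), so GADD45A was not shown to depend on TNFα. The call after TNFα was lost without replicate 1 of the treated S80A libraries (0.53 ± 0.17, adjusted p = 0.106, edgeR) and without replicate 2 or 3 of the treated WT libraries (adjusted p = 0.091 and 0.0555, edgeR). In untreated cells it was gained with DESeq2 (adjusted p = 0.029).

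CDKN1A, the best known arrest gene of p53, showed the largest spread. In untreated WT cells its normalised counts were 504, 279 and 270, and in untreated S80A cells 868, 360 and 326. After TNFα they were 474, 255 and 289 in WT and 816, 355 and 414 in S80A cells. In each group replicate 1 stood far above the other two, and the genotypes overlapped, although at each replicate number the S80A library was above the WT library in both states. The log2 difference of S80A over WT was 0.57 ± 0.39 in untreated cells (adjusted p = 0.47, edgeR) and 0.65 ± 0.40 after TNFα (adjusted p = 0.366, edgeR). The 95% interval, taken as 1.96 SE either side, ran from -0.20 to 1.34 in untreated cells, which leaves room for a rise of more than 2-fold as well as for none. Without replicate 1 of the untreated S80A cells, but with the high WT replicate 1 kept, the untreated difference was -0.03 ± 0.35. Without all 4 libraries numbered 1 it was 0.32 ± 0.13, and 0.50 ± 0.13 after TNFα (adjusted p = 0.295 and 0.105, edgeR). With a block for the replicate number, described below, it was 0.49 ± 0.12 and 0.60 ± 0.12 (adjusted p = 0.0241 and 0.00882, edgeR). The CDKN1A call thus depended on how the replicate numbers were treated.

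The genes of the feedback loop and the sestrins moved little between genotypes. MDM2 gave normalised counts of 2547, 2434 and 2757 in untreated WT cells and 2846, 3129 and 2742 in untreated S80A cells. These overlapped, at a log2 difference of 0.17 ± 0.09 (adjusted p = 0.334, edgeR) with a 95% interval from -0.01 to 0.35. After TNFα MDM2 differed by -0.11 ± 0.09 (adjusted p = 0.532, edgeR). CCNG1 was above WT in all 3 untreated S80A libraries, as were 11.7% of all genes tested, by 0.28 ± 0.15 on the log2 scale (adjusted p = 0.32, edgeR). One of these libraries was at 7347 normalised counts and the others at 4952 and 4877. SESN1 differed by 0.09 ± 0.11 in untreated cells, with a 95% interval from -0.12 to 0.31, and SESN2 by 0.04 ± 0.16, with an interval from -0.27 to 0.36. In untreated cells the intervals of MDM2, SESN1 and SESN2 lay within a 2-fold difference in either direction, unlike that of CDKN1A. BTG2 differed by 0.16 ± 0.13 in untreated cells and 0.16 ± 0.12 after TNFα (adjusted p = 0.526 and 0.493, edgeR).

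**Figure D2:**
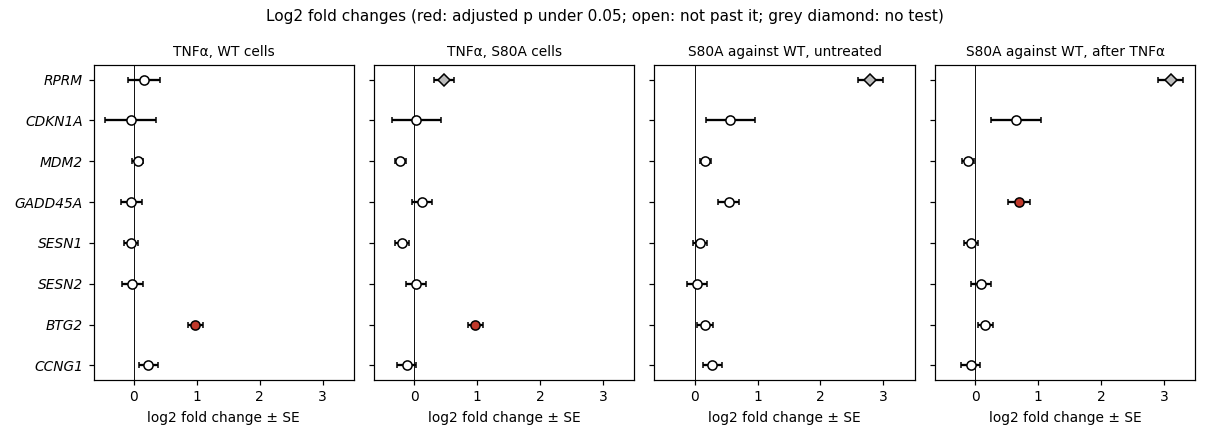
Log2 fold change ± SE (horizontal axis) of the 8 genes (rows) in the 4 comparisons (panels), each from 3 against 3 libraries. Red marks an adjusted p under 0.05, open circles did not pass, and grey diamonds mark RPRM where it carries no test. BTG2 passes in both TNFα panels and GADD45A in the last panel, while RPRM lies at 2.79 and 3.11 in the genotype panels.

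Of the 8 genes, BTG2 was the one called with TNFα, and it rose in both genotypes. In WT cells its normalised counts went from 355, 369 and 361 without TNFα to 755, 684 and 695 with it, and in S80A cells from 488, 370 and 356 to 916, 747 and 714. The groups did not overlap, though the share of all genes separated in this way with TNFα was not counted. The log2 rise was 0.98 ± 0.12 in WT cells (adjusted p = 0.000623, edgeR) and 0.97 ± 0.12 in S80A cells (adjusted p = 0.000472, edgeR), or 1.97-fold and 1.96-fold. BTG2 was thus 1 of 8 genes called in WT cells, where 0.688% of all genes tested were called, and 1 of the 7 tested in S80A cells, where 1.26% were.

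CDKN1A, GADD45A, SESN1 and SESN2 changed by between -0.19 and 0.12 on the log2 scale with TNFα in either genotype, none past the threshold. MDM2 was lower in all 3 treated than in all 3 untreated S80A libraries, by -0.22 ± 0.09 (adjusted p = 0.455, edgeR), against 0.06 ± 0.09 in WT cells. How many of all genes tested were separated in this way with TNFα was not counted. The MDM2 interaction of genotype and TNFα was -0.28 ± 0.13, with an unadjusted p of 0.0487 and an adjusted p of 0.911 (edgeR). No gene of the whole table passed the interaction in edgeR, a called share of 0.0%, and 520 genes had an unadjusted p under 0.05. DESeq2 also called 0 genes, with 464 at an unadjusted p under 0.05. The 7 arrest genes tested had adjusted interaction p-values from 0.911 to 0.999 in edgeR.

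The wider set of direct p53 targets was examined as a list of 48 further genes, of which 44 were tested. In untreated cells 1 was called higher in S80A than in WT cells and 6 were called lower, so that 15.9% were called, beside the 6.26% of all genes given above. After TNFα 0 were called higher by edgeR and 5 lower (11.4%, beside 7.36%), with 2 higher at an unadjusted p under 0.05 and 1 called higher by DESeq2. The list's median log2 difference was 0.04 in untreated cells and 0.05 after TNFα, beside 0.01 and 0.00 over all genes tested. The genes called lower were led by EDA2R, a receptor of the TNF receptor family, at 50.8 ± 15.3 normalised counts in untreated WT and 8.46 ± 4.03 in untreated S80A cells. Its log2 difference was -2.56 ± 0.35 in untreated cells (adjusted p = 0.00057, edgeR) and -2.73 ± 0.37 after TNFα. TP53I3, a quinone oxidoreductase gene, differed by -0.70 ± 0.19 and -1.03 ± 0.20 in the same order, both past the threshold, though the untreated call was lost in 9 of the 12 fits that left out 1 library, those without any 1 WT library, untreated S80A replicate 2 or 3 or treated S80A replicate 2, at -0.80 to -0.52.

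FDXR, which encodes the mitochondrial ferredoxin reductase, was lower in S80A cells by a log2 difference of -0.59 ± 0.09 in untreated cells and -0.36 ± 0.09 after TNFα. TRAF4, a TNF receptor associated factor, gave -0.51 ± 0.08 and -0.32 ± 0.08. After TNFα the FDXR call was lost in 9 of the 12 fits, those without any 1 treated S80A or untreated WT library, treated WT replicate 1 or 3 or untreated S80A replicate 3, and the TRAF4 call without replicate 1 or 2 of either treated group, at log2 differences no weaker than -0.29 and -0.26. The phosphatase gene PPM1D, a negative regulator of p53, entered the 4 largest falls after TNFα at -0.41 ± 0.08. The one gene called higher in untreated cells was TP53INP1, a stress-induced gene of autophagy and apoptosis, at 0.56 ± 0.15 (adjusted p = 0.0471, edgeR). That call was lost in 10 of the 12 fits that left out 1 library, which included all those without an untreated library of either genotype. Nor was it kept without the replicate 1 libraries of S80A cells or of all groups. Among the targets called, those lower than in WT thus outnumbered those higher. Where these genes lie on the chromosomes was not examined, and the cause of their lower levels was not tested. EDA2R kept its call in each alternative fit in which it was tested, which left out the fit requiring 10 counts in every sample. It passed the main filter through the WT groups, with at most 14 reads in an S80A library. Its kept call is therefore no added support.

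**Figure D3:**
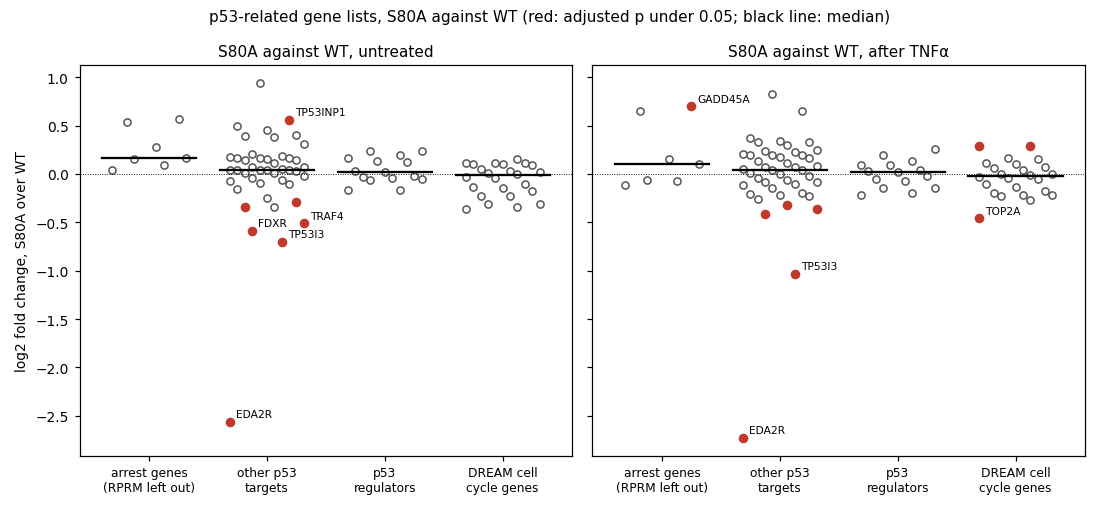
Log2 fold change of S80A over WT (vertical axis) for each tested gene of 4 lists (horizontal axis), in untreated cells on the left and after TNFα on the right; red points have an adjusted p under 0.05 and black lines are list medians. RPRM is left out. The called p53 targets other than GADD45A and TP53INP1 lie below 0, with EDA2R at -2.56 and -2.73.

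With TNFα, 3 of the 44 further p53 targets were called higher in WT cells and 4 in S80A cells, and 0 were called lower in either by edgeR or DESeq2, with 0 and 2 lower at an unadjusted p under 0.05. These were 6.82% and 9.09% of the list, beside the 0.688% and 1.26% of all genes called in either direction. ATF3, a stress-induced transcription factor, rose by 1.02 ± 0.11 in WT and 0.91 ± 0.10 in S80A cells on the log2 scale. CSF1, a macrophage growth factor, rose by 1.05 ± 0.20 and 1.55 ± 0.20, and DRAM1, a lysosomal gene of autophagy, by 1.05 ± 0.21 and 1.44 ± 0.22. NINJ1, which encodes a membrane protein of plasma membrane rupture, was called in S80A cells alone, at 0.53 ± 0.10, and its difference between genotypes did not pass the interaction. The list medians were 0.02 in WT and 0.00 in S80A cells, beside 0.00 over all genes in each. The DRAM1 call in WT cells was lost without any 1 of the 6 WT libraries, and that of CSF1 without any 1 untreated WT library or treated WT replicate 1. The NINJ1 call was lost without untreated S80A replicate 3 or treated S80A replicate 1.

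Genes related to the 8 by family were compared next. RPRML, the paralogue of RPRM, was lower in untreated S80A cells, at 31.7 ± 5.63 against 68.9 ± 10.8 normalised counts in WT, a log2 difference of -1.10 ± 0.27 (adjusted p = 0.0264, edgeR), the opposite sign to RPRM. The call was lost without replicate 2 or 3 of either untreated group. GADD45B, the relative of GADD45A that NF-κB is known to induce, rose with TNFα from 142 ± 6.75 to 475 ± 39.5 in WT and from 184 ± 62.2 to 594 ± 129 in S80A cells. These were log2 changes of 1.74 ± 0.20 and 1.69 ± 0.19 (adjusted p = 0.000189 and 0.00015, edgeR), where GADD45A did not pass. TOB1, of the same family as BTG2, was lower in S80A cells in both states, by a log2 difference of -0.37 ± 0.09 and -0.47 ± 0.09, and fell with TNFα in S80A cells by 0.47. In WT cells TOB1 differed with TNFα by -0.37 ± 0.09 (adjusted p = 0.0821, edgeR), and the interaction of -0.10 ± 0.12 did not pass (adjusted p = 0.921, edgeR). SESN3 fell with TNFα in S80A cells by 0.73 on the log2 scale (adjusted p = 0.0209, edgeR). In WT cells SESN3 differed by -0.29 ± 0.14 (adjusted p = 0.908, edgeR), and its interaction did not pass (adjusted p = 0.911, edgeR). The SESN3 call was lost without treated S80A replicate 1 or 3 or untreated replicate 3. The TOB1 call with TNFα was lost without treated S80A replicate 1 or 2, and its untreated genotype call without WT replicate 2 or 3 or S80A replicate 3. Of the 11 relatives, 10 were tested, and GADD45G, with at most 13 reads in a library, was not.

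Cell cycle genes that fall when p53 and p21 act through the DREAM repressor complex were counted as a list of 24, all tested. In untreated cells edgeR called 0 between the genotypes, with 6 lower in S80A cells at an unadjusted p under 0.05, and DESeq2 called 3 lower. After TNFα 2 were called higher and 1 lower by both tools, or 12.5% of the list. The shares of all genes called were 6.26% and 7.36% in the same order. Their medians were -0.01 and -0.02. TOP2A, a topoisomerase of dividing cells, was lower after TNFα by a log2 difference of -0.46 ± 0.09, while MYBL2 and E2F1, which encode factors of S phase entry, were higher by 0.29 ± 0.07 and 0.29 ± 0.08. Those 2 calls were lost in 5 and 8 of the 12 fits without 1 library, which included replicate 1 and 2 of the treated WT cells and replicate 1 and 3 of the treated S80A cells in both cases. The partners of the kinase complex on which Reprimo is known to bear were singled out with their values known. CCNB1 differed between untreated genotypes by 0.01 ± 0.13 and CDK1 by 0.03 ± 0.12, and after TNFα CCNB1 differed by -0.04 ± 0.13 and CDK1 by -0.23 ± 0.12, none past the threshold. Of 15 tested regulators of p53, including kinases and ligases that act on it, edgeR and DESeq2 called 0 in any of the 4 comparisons, with 3 at an unadjusted p under 0.05 between untreated genotypes, 1 between treated genotypes and 0 with TNFα in either genotype in edgeR.

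Several p53 targets were highest in replicate 1, a pattern noticed after the values were seen. CDKN1A in replicate 1 was 1.84 times the mean of replicates 2 and 3 in untreated WT cells, 1.75 times in treated WT cells, 2.53 times in untreated S80A cells and 2.12 times in treated S80A cells. GADD45A, SESN1 and SESN2 were likewise highest in replicate 1 of all 4 groups, which makes 4 of the 8 genes, against 7.69% of all genes tested. In the wider list 17 of 44 p53 targets (38.6%) showed it. It was also seen in lists outside the p53 targets, in 3 of 6 HEK293T markers, 1 of 3 TNFα control genes, 3 of 12 targets of ATF4 and stress, 3 of 15 regulators of p53 and 1 of 10 family relatives, and in 0 of the 24 DREAM cell cycle genes. RPRM did not, since its replicate 1 was the lowest of the 3 in treated WT cells. Nor did CCNG1, in which replicate 1 was highest in 0 groups, or MDM2, in which it was highest in 2.

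Without the 2 S80A libraries numbered 1, an alternative added after the data were seen, GADD45A after TNFα was 0.53 ± 0.15 (adjusted p = 0.0748, edgeR) and CDKN1A in untreated cells -0.03 ± 0.27. Without all 4 libraries numbered 1, CDKN1A was 0.32 ± 0.13 in untreated cells and 0.50 ± 0.13 after TNFα (adjusted p = 0.295 and 0.105, edgeR), and the RPRM difference after TNFα, 3.11 with all libraries, was 2.80. The labels tie the replicate number to no batch.

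**Figure D4:**
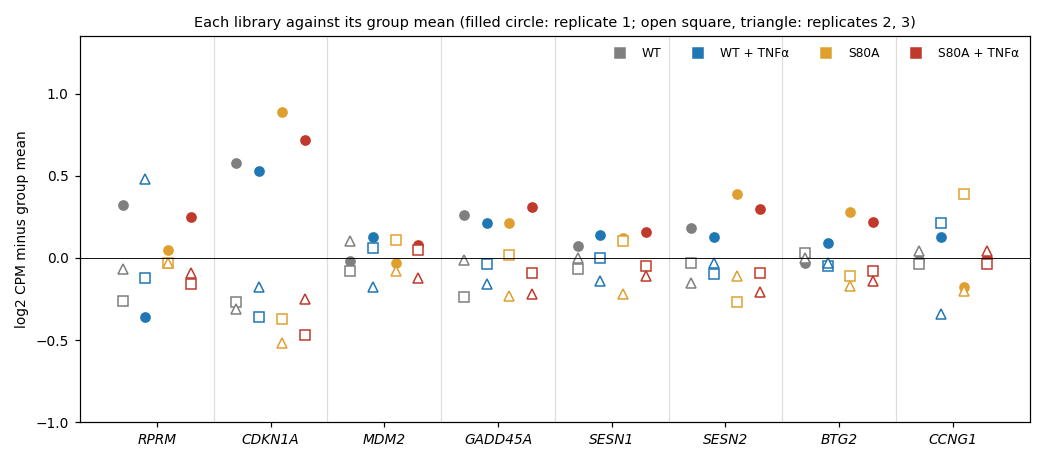
Log2 CPM of each library minus the mean of its own group (vertical axis) for the 8 genes (horizontal axis), with colours for the 4 groups, filled circles for replicate 1 and open squares and triangles for replicates 2 and 3. CDKN1A, GADD45A, SESN1 and SESN2 have replicate 1 highest in all 4 groups, and CDKN1A reaches 0.89 above its group mean.

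To find the genes most like RPRM, gene-centred log2 CPM was compared over the 12 samples among 13057 genes with a mean of at least 1 CPM. The 5 nearest were LINC00470, ATP2B3, CROCC, CELF2 and ISM1, with root mean square distances from 0.561 to 0.673 on the log2 scale. CROCC, which encodes the rootletin of the ciliary rootlet, had 326 ± 7.43 normalised counts in untreated WT and 1051 ± 33.6 in untreated S80A cells. CELF2, an RNA-binding splicing regulator, had 217 ± 14.4 and 859 ± 71.9 in the same groups. All 5 were picked for resembling RPRM, so their higher level in S80A cells follows from the choice, and 0 of them is in the p53 lists above.

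The neighbours of RPRM on chromosome 2 did not follow it. Of the 5 protein-coding genes on each side, 8 were tested, and edgeR and DESeq2 called 0 in each of the 4 comparisons. At an unadjusted p under 0.05 edgeR gave 1 with TNFα in WT cells and 1 between treated genotypes. Of all genes tested, 6.26% were called between untreated genotypes and 7.36% between treated ones. With TNFα the shares were 0.688% in WT and 1.26% in S80A cells, so 0 of 8 is close to the share of all genes. In untreated cells the log2 differences of the neighbours, S80A over WT, ran from 0.07 to 0.19. After TNFα they ran from -0.37 to 0.63, where RPRM stood at 2.79 untreated and 3.11 after TNFα. NR4A2, an orphan nuclear receptor gene, had the highest of these after TNFα, at 0.63 ± 0.23 (adjusted p = 0.113, edgeR).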

How the data were processed

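The authors sequenced poly(A) RNA from 12 samples, aligned reads to GRCh38 with HISAT and counted them per gene with HTSeq-count. They deposited raw counts per gene symbol, and the versions and the strand setting of the counting are not given in the sources used here. Their 2 lists of called genes hold their own fold changes, p-values and scaled counts and were not used.

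Of 33121 rows, 28 with dates in place of gene symbols were dropped. Genes passing filterByExpr (minimum count 10) were fitted in edgeR 4.0.16 under R 4.3.3, in one quasi-likelihood model with TMM scaling and a mean for each of the 4 groups. P-values were adjusted by Benjamini-Hochberg over all 14383 genes tested, at 0.05. The SE is the log2 fold change divided by the square root of F. Steps were tested on simulated data. Symbols were matched to current names through RefSeq synonyms. Alternatives were DESeq2 1.42.0, other scalings and filters, a replicate block, fits to the 6 samples compared, each library left out in turn, and a shorter promoter window; 2 fits without replicate 1 libraries and the search for the full p53 element were added after the data were seen. Tables were made in Python 3.11.15.

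The 8 genes and all lists were chosen with earlier results of these data known. Named genes are the 8, their relatives, called list genes with at most the 4 largest folds in each direction for the wider p53 list, the nearest profiles to RPRM and its neighbours. With totals of 15624878 to 20889577 reads, counting error among the 8 genes weighs most on RPRM in WT cells, which had 27 to 53 reads. Some genes named beyond the 8 had fewer, such as EDA2R in S80A cells, at most 14 reads untreated and 11 after TNFα. Items withheld for evaluation are not reported here.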

Additional observations from a re-analysis of the deposited data

How the results depend on the processing

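BTG2 kept its direction and call with TNFα in every alternative in both genotypes, and RPRM stayed between 2.66 and 3.41 on the log2 scale in S80A over WT cells without any 1 library. Among the 7 other arrest genes in untreated cells, the main count of 0 called became 1 with no filter on low counts and 1 with the DESeq2 test, GADD45A in each case. After TNFα the main count of 1 became 0 without the 2 S80A libraries of replicate number 1 and 0 without all 4 libraries of that number. Leaving out 1 library at a time gave 0 to 1 called in both states. The cause was not tested.

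The replicate numbers were checked as pairs. Samples of the same number had correlations of their deviations from -0.0989 to 0.495, over 0.1 in 9 of 18 pairs. Their mean was 0.118, beside -0.059 for samples of unlike number. All pairs among the replicate 1 libraries were positive, from 0.116 to 0.495. Since 6 of 12 samples correlated best with their own number, the main fit did not take the numbers to pair samples. That fit leaves any difference shared by a replicate number within its spread between replicates. With a block for the replicate number, 2 of the 7 arrest genes were called in untreated cells and 2 after TNFα, where 8.57% and 10.2% of all genes were called in that fit. They were GADD45A (adjusted p = 0.00584 in untreated cells and 0.00131 after TNFα, edgeR) and CDKN1A, at 0.49 ± 0.12 and 0.60 ± 0.12 on the log2 scale (adjusted p = 0.0241 and 0.00882, edgeR).

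Signs that changed were all of differences not past the threshold. With 1 library left out, log2 values with TNFα in WT cells ran from -0.14 to 0.35 for RPRM, -0.37 to 0.30 for CDKN1A, 0.00 to 0.15 for MDM2, -0.16 to 0.10 for GADD45A, -0.11 to 0.03 for SESN1 and -0.09 to 0.08 for SESN2. With TNFα in S80A cells they ran from -0.43 to 0.63 for CDKN1A, -0.06 to 0.23 for GADD45A, -0.14 to 0.25 for SESN2 and -0.22 to 0.09 for CCNG1. For S80A over WT in untreated cells they ran from -0.03 to 0.92 for CDKN1A and -0.17 to 0.18 for SESN2, and after TNFα from -0.14 to 0.02 for SESN1, -0.07 to 0.20 for SESN2 and -0.21 to 0.03 for CCNG1. The GADD45A interaction ran from -0.02 to 0.27. Without the 2 S80A libraries numbered 1, untreated CDKN1A was -0.03, untreated SESN2 -0.17 and treated SESN2 -0.07. Without all 4 numbered 1, TNFα in WT cells gave -0.01 for MDM2 and 0.00 for SESN2, and S80A over WT gave -0.08 for SESN2 and -0.01 for BTG2 in untreated cells and 0.00 for SESN2 after TNFα.

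Of the further p53 targets, the 6 called lower in untreated cells became 3 in a fit to the 6 samples compared and 3 without all 4 libraries numbered 1, where the 5 after TNFα became 2. Without 1 library they were 3 to 5 in untreated cells, lowest without any 1 untreated WT library or untreated S80A replicate 3, and 3 to 6 after TNFα. The 1 called higher became 4 under the block and 2 with DESeq2. A p53 half-site was in 4.75% of promoters when the window ended at the start.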

Other observations

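SESN2, GADD45A and CDKN1A are also known to respond to ATF4 and other stress factors, and 12 targets of that pathway were counted beside them. Between the genotypes edgeR called 0 higher, with 1 at an unadjusted p under 0.05, and 1 lower in untreated cells, SHMT2, at a log2 difference of -0.23 ± 0.06. After TNFα it called 0 higher, also at an unadjusted p under 0.05, and 1 lower, PSAT1, at -0.32 ± 0.08. Both encode enzymes of serine and glycine metabolism. In each state 8.33% of the list was called, beside 6.26% of all genes tested in untreated cells and 7.36% after TNFα. DESeq2 called 0 higher in either state, with 2 lower in untreated cells and 1 lower after TNFα, and edgeR gave 3 and 2 lower at an unadjusted p under 0.05. The medians were -0.04 and -0.01, beside 0.01 and 0.00 over all genes tested. With TNFα, ATF3 was the 1 gene of this list called in each genotype, and it is also in the list of p53 targets. That was 8.33% of the list in each genotype, beside 0.688% of all genes in WT and 1.26% in S80A cells.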
